A study of Arabidopsis thaliana with 9 samples.

Results

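Pectin methylesterases are the enzymes that remove methyl groups from homogalacturonan, the main pectin of the plant cell wall. The family was taken as a list of 57 Arabidopsis thaliana locus codes, matched to probe sets that the array annotation assigns to 1 gene. Of the 57 genes, 39 had such a probe set, out of 13355 genes with one on the array, and none of them had more than 1. Another 4 genes shared 2 probe sets in pairs, and 14 were not listed in the annotation used here. All samples came from plants with the transgene LAT52-HF-RPL18, in which the pollen promoter LAT52 drives an epitope-tagged ribosomal protein L18, grown at 22 °C under 18 h of light and 6 h of dark. Polysomes were taken from a 20% to 60% sucrose gradient, and tagged complexes were captured from them through the FLAG epitope. The in vivo group was polysomal mRNA of pollen tubes grown in self-pollinated flowers of stage 14, the in vitro group was that of cultured pollen tubes, and the bud group was that of floral buds of stage 11 to 12. Each group held 3 samples labelled as biological replicates, hybridised to 1 Affymetrix array each, and no group lacked the transgene. The series text names unpollinated styles for the bud material, whereas the sample labels name floral buds.

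Homogalacturonan is secreted in a methylated form, and its demethylation by these enzymes allows calcium to cross-link the chains and stiffen the wall. In pollen tubes methylated pectin is typical of the growing tip and demethylated pectin of the shank behind it, and inhibitor proteins hold the enzymes in check. Many members of the family carry an N-terminal region that resembles these inhibitors. VGD1 (VANGUARD1) and PPME1 are known for their part in pollen tube growth, and QRT1 (QUARTET 1) for the separation of pollen grains. VGD1 and PPME1 shared their probe sets with other members, and QRT1 was among the genes not listed.

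The deposited values were MAS5 signals, scaled so that every array has the same trimmed mean, and a signal is therefore relative to the other probe sets of its array. The median signal of an array was 174 to 187 in vivo, 68.6 to 112 in vitro and 175 to 196 in bud. The brightest 1% of probe sets held 44.8% and 46.3% of all signal on in vitro replicates 1 and 2 and 64.1% on in vitro replicate 3. The summed signal of 9 measured pollen tube markers, of 10 listed, ran from 16834 to 38332 in vivo, 502667 to 800783 in vitro and 2363 to 5248 in bud. The summed signal of 5 measured green tissue markers, of 7 listed, ran from 33765 to 51847 in vivo, 362 to 636 in vitro and 36580 to 63700 in bud, so genes of green tissue were bright in pull-downs that the labels assign to pollen. The tapetum is the nurse tissue of the anther. Its 4 measured markers, of 7 listed, summed to 517 to 903 in vivo, 108 to 808 in vitro and 6911 to 9556 in bud. Most of the in vivo sum came from EMS1 (AT5G07280), with 700, 468 and 827 in vivo, against 457, 821 and 877 in bud. In such bulk pull-downs, fewer cells of a type and less mRNA per cell cannot be told apart.

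Of the 39 measured pectin methylesterases, 24 were called in at least 1 of 3 comparisons and 15 in none. A gene was called when its adjusted p was under 0.05 in limma, a linear model fitted to log2(signal + 16) of all 22746 probe sets on all 9 arrays, with the Benjamini-Hochberg adjustment over all of them. In vitro relative to bud, 13 members (33.3%) rose and 9 (23.1%) fell. Over all probe sets, 20.4% were called higher and 40.5% lower in that comparison. In pollinated flowers 9 members (23.1%) rose relative to bud and none fell, against 2.15% of all probe sets called higher and 1.87% called lower; no member had a negative fold at an unadjusted p under 0.05 in limma either, while 13 had a positive one. In vivo relative to in vitro, 9 members were higher and 13 lower, against 39.4% and 20.0% of all probe sets. Log2 folds are printed ± the standard error that limma estimated, and means ± the standard deviation (SD) of 3 arrays; the offset of 16 makes the folds of dim genes smaller than the ratios of their signals.

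**Figure D1:**
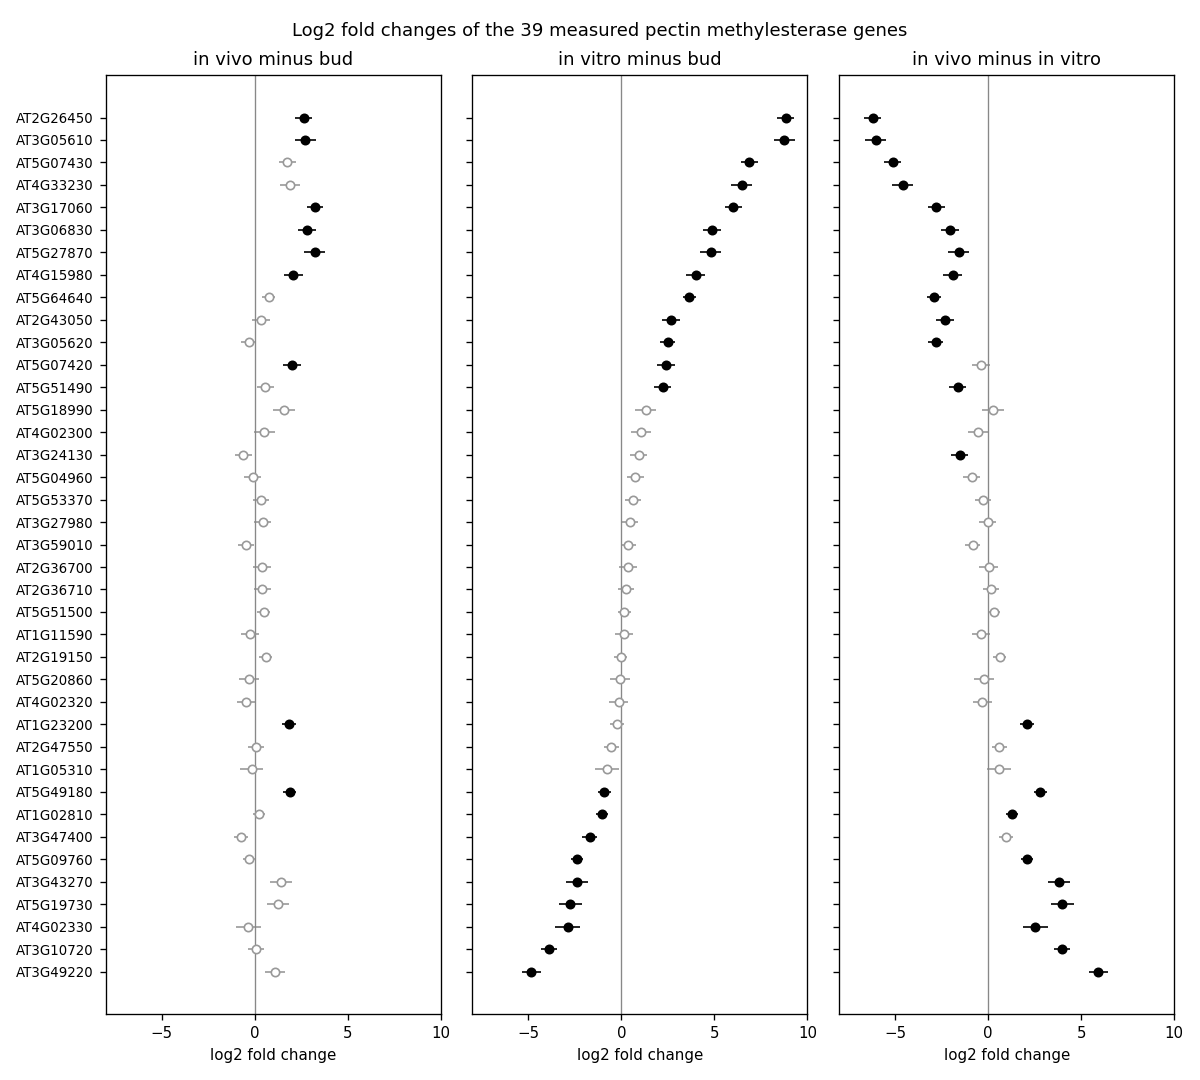
Log2 fold changes (x axis) of the 39 measured pectin methylesterases (rows) in 3 comparisons, with bars for the standard error of the limma fit; filled points have an adjusted p under 0.05. In vitro minus bud, the folds run from 8.82 for AT2G26450 to -4.83 for AT3G49220, and in vivo minus bud all filled points lie right of 0.

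Cultured pollen tubes were first set against buds, the stage before pollination. The members with the largest folds were AT2G26450, AT3G05610, AT5G07430, AT4G33230 and AT3G17060. AT2G26450 had signals of 72969, 72686 and 80762 on the in vitro arrays, against 271, 147 and 83.2 on the bud arrays. The in vitro arrays lay close together and far above the bud arrays, and the log2 fold was 8.82 ± 0.45 (adjusted p = 8.32e-08). AT3G05610 had 77670.4, 70503 and 164473 in vitro, against 417, 204 and 101 in bud. Here in vitro replicate 3 was the brightest and bud replicate 3 the dimmest, with a log2 fold of 8.76 ± 0.56 (adjusted p = 2.27e-07). AT5G07430 had 86685, 117127 and 187926 in vitro, against 1363, 1341 and 623 in bud, a log2 fold of 6.87 ± 0.45 (adjusted p = 2.57e-07). AT4G33230 showed the opposite order of the cultured arrays, with in vitro replicate 3 the dimmest: its signals were 11199, 9970.4 and 3264 in vitro, against 59.0, 92.6 and 48.0 in bud, and its log2 fold was 6.48 ± 0.56 (adjusted p = 1.62e-06). AT3G17060 had 80309.7, 90571 and 187866 in vitro, against 2145, 2027 and 1133 in bud, and rose by 6.01 ± 0.44 (adjusted p = 5.46e-07).

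The other 8 members that rose in vitro relative to bud had log2 folds between 4.87 and 2.22. AT3G06830 had 16344, 10449 and 8006 in vitro, against 596, 464 and 171 in bud, and AT5G27870 had 13020.5, 12285 and 5150.0 in vitro, against 234, 639.9 and 219.7 in bud. In these 2 genes in vitro replicate 3 was the dimmest cultured array, and the groups did not overlap. AT4G15980 had 5106, 3377 and 2331 in vitro, against 169, 299 and 158 in bud, and rose by 3.99 ± 0.50 (adjusted p = 2.88e-05). AT5G64640 had 3629, 2517 and 2286 in vitro, against 167, 268 and 188 in bud, and rose by 3.66 ± 0.35 (adjusted p = 3.76e-06). Both were brightest on in vitro replicate 1 among the cultured arrays. AT5G07420 had 13769, 17387 and 13831 in vitro, against 3749.6, 3629.7 and 1628 in bud, with a log2 fold of 2.40 ± 0.49 (adjusted p = 0.00115). AT2G43050 (ATPMEPCRD) had 197, 201 and 218 in vitro, against 37.6, 3.26 and 23.8 in bud, and AT5G51490 had 46.8, 80.2 and 186 in vitro, against 4.82, 15.1 and 2.61 in bud. In 14 of the 39 measured members, these 13 and AT3G24130, every in vitro array exceeded every bud array, against 22.7% of all probe sets. The 13 calls held in each of 17 alternative settings.

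**Figure D2:**
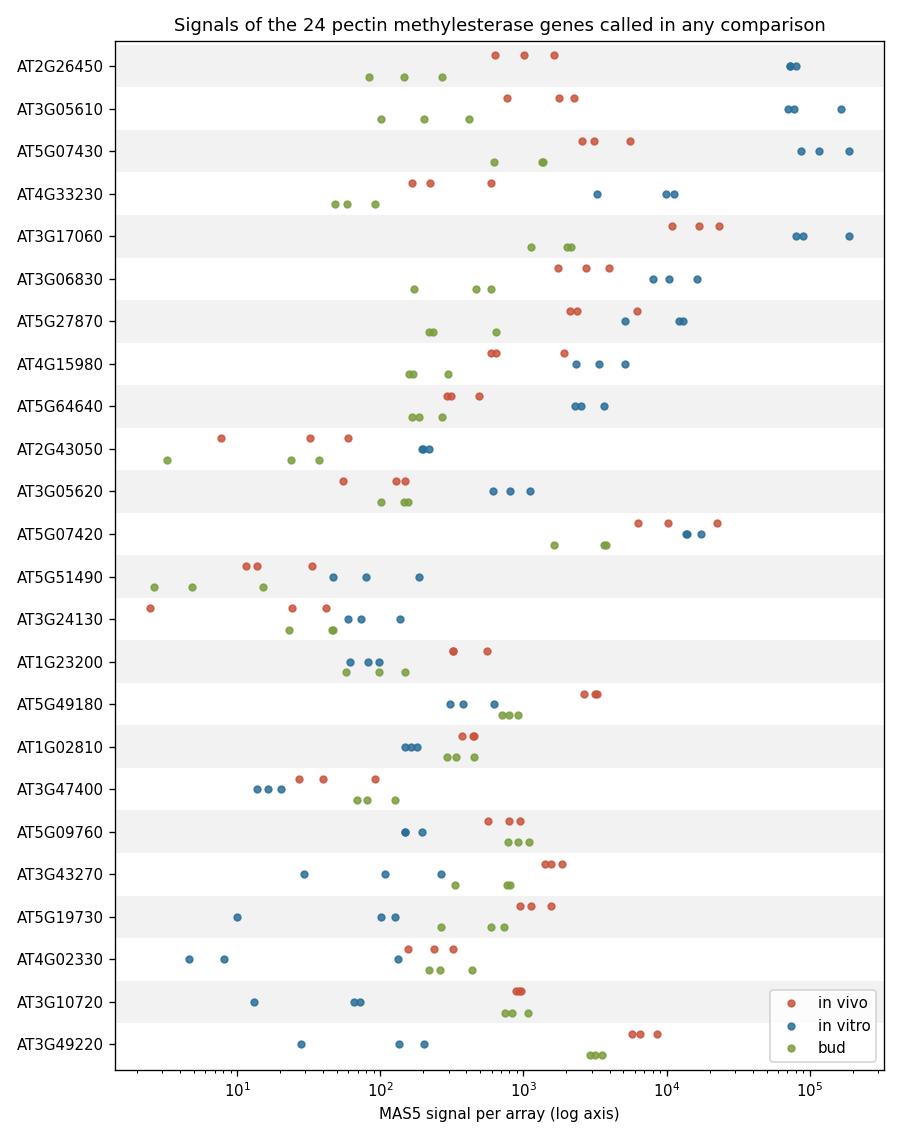
MAS5 signals (log x axis) of the 24 pectin methylesterases called in any comparison, 1 point per array, with in vivo, in vitro and bud offset within each row. In the upper 13 rows all in vitro points lie right of the bud points, and in the lowest 9 rows all lie left of them.

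Of the 9 members that fell in vitro relative to bud, AT3G49220 had the largest change. Its signals were 135, 28.2 and 201 in vitro, against 3534, 3172 and 2939 in bud, and its log2 fold was -4.83 ± 0.51 (adjusted p = 8.14e-06). The bud arrays were close together and the cultured arrays spread widely at a low level. AT3G10720 had 65.9, 72.3 and 13.0 in vitro, against 749, 829.9 and 1079 in bud, a log2 fold of -3.91 ± 0.43 (adjusted p = 1.03e-05). AT4G02330 (ATPMEPCRB, also named PME41), known for a part in chilling tolerance, had 8.08, 4.65 and 133 in vitro, against 435, 219 and 263 in bud. In vitro replicate 3 stood well above the other cultured arrays, yet below each bud array, and the log2 fold was -2.88 ± 0.66 (adjusted p = 0.00255). AT5G09760 had 149, 196 and 149 in vitro, against 783, 1087 and 914 in bud, and fell by 2.38 on the log2 scale (adjusted p = 5.98e-05). The other 5 had log2 folds between -2.73 and -0.91. AT5G19730 had 102, 127 and 10.04 in vitro, against 267, 593 and 732 in bud, with -2.73 ± 0.61 (adjusted p = 0.00223). AT3G43270 had 108, 266 and 29.6 in vitro, against 804, 769.5 and 334 in bud, with -2.38 ± 0.59 (adjusted p = 0.00413). AT3G47400 had 16.4, 20.4 and 13.7 in vitro, against 128, 81.4 and 68.8 in bud (-1.69, adjusted p = 0.00288). AT1G02810 had 148, 165 and 180.3 in vitro, against 452, 337 and 294 in bud (-1.05, adjusted p = 0.0109). AT5G49180 had 308, 379.7 and 625 in vitro, against 793, 915 and 712 in bud (-0.91, adjusted p = 0.0359), and was called in 6 of the 17 alternative settings. In these 9 of the 39 measured members, and in no other, every in vitro array lay below every bud array, against 41.1% of all probe sets.

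How many members fell depended on how the arrays were scaled. Over all probe sets the median log2 fold in vitro relative to bud was -0.42 with the deposited scaling, 0.22 after quantile normalization and 0.63 with equal array medians, and the folds above are to be read against these medians. AT3G49220, AT3G10720, AT4G02330 and AT5G09760 were lower in vitro under all 3 scalings, with AT3G49220 at -4.83, -4.38 and -3.77. The count of members that fell was 9 with the deposited scaling, 4 after quantile normalization and 5 with equal medians. AT5G49180 and AT1G02810 had small positive folds under both other scalings. The 13 members that rose were called higher under all 3 scalings, among 18 called after quantile normalization and 24 with equal medians. Shares over all probe sets were counted only with the deposited scaling, so the counts under the other scalings have none beside them.

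**Figure D3:**
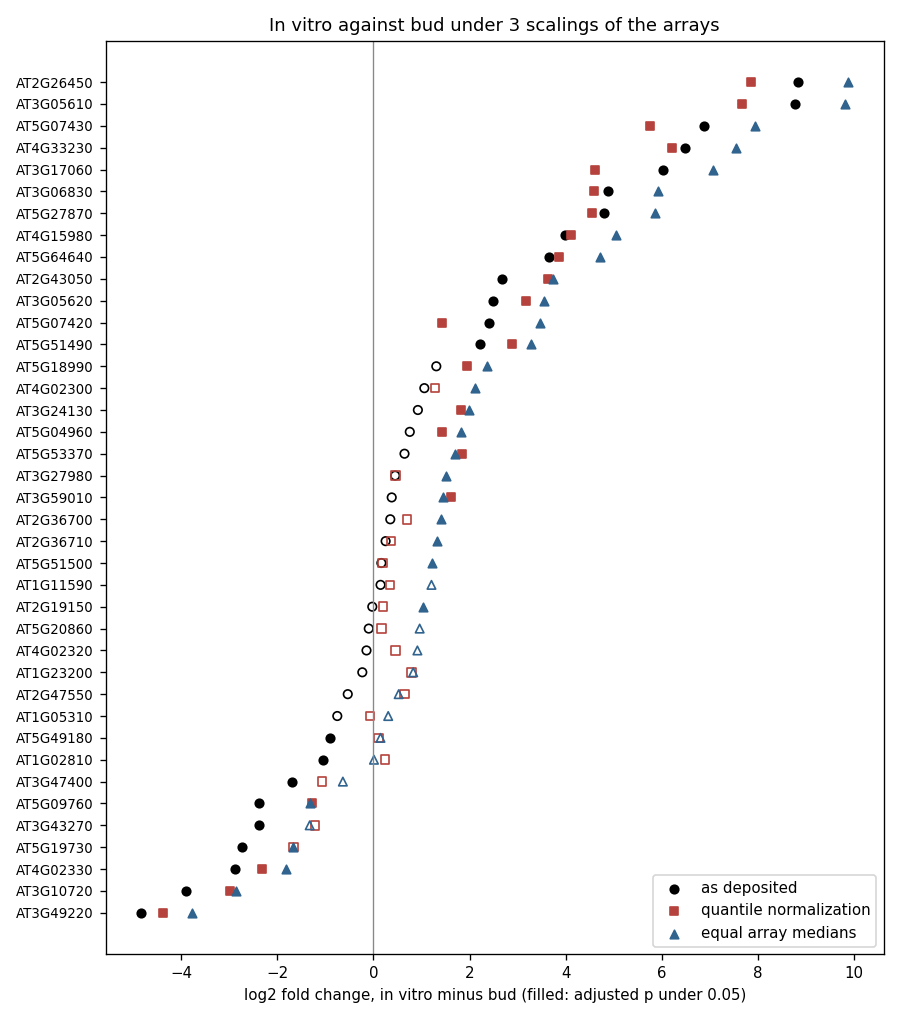
Log2 folds in vitro minus bud (x axis) of the 39 measured pectin methylesterases under 3 scalings of the arrays; filled symbols have an adjusted p under 0.05. The 13 genes at the top are filled and right of 0 in all 3, while the lowest 9 are filled and left of 0 in all 3 for AT3G49220, AT3G10720, AT4G02330 and AT5G09760 and not for the other 5.

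Tubes in pollinated flowers were set against buds in turn; the groups also differ in floral stage, and stage and pollination cannot be told apart. The bud arrays are those used above. AT3G17060 and AT5G27870 had the largest folds. AT3G17060 had signals of 10849, 16984 and 23254 in vivo, against 2145, 2027 and 1133 in bud, a log2 fold of 3.24 ± 0.44 (adjusted p = 0.00149). AT5G27870 had 2384, 2116 and 6172 in vivo, against 234, 639.9 and 219.7 in bud, a log2 fold of 3.23 ± 0.56 (adjusted p = 0.00678). In both genes in vivo replicate 3 was the brightest, and every in vivo array exceeded every bud array. AT3G06830 rose by 2.81 ± 0.50 (adjusted p = 0.00751), with 2737, 1739 and 3945 in vivo, against 596, 464 and 171 in bud. AT2G26450 had 1018, 629.7 and 1628 in vivo, against 271, 147 and 83.2 in bud, a log2 fold of 2.63 ± 0.45 (adjusted p = 0.00654). AT3G05610 had a log2 fold of 2.72 ± 0.56 (adjusted p = 0.018) and signals of 1763, 765 and 2251 in vivo, against 417, 204 and 101 in bud.

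AT5G49180 differed from these in that its 3 in vivo arrays were close together: 2656, 3274 and 3156 in vivo, against 793, 915 and 712 in bud, a log2 fold of 1.89 ± 0.34 (adjusted p = 0.00825). AT1G23200 had 321, 320.3 and 553 in vivo, against 97.7, 149.6 and 57.3 in bud, with 1.85 ± 0.39 (adjusted p = 0.0199). AT4G15980 and AT5G07420 passed near the threshold, with log2 folds of 2.09 (adjusted p = 0.0394) and 2.01 (adjusted p = 0.0431). AT5G07430 had 3103, 2580.0 and 5552 in vivo, against 1363, 1341 and 623 in bud, and was not called (1.75, adjusted p = 0.0585) although the arrays did not overlap. It was called higher after quantile normalization (adjusted p = 0.0469) and with equal medians (adjusted p = 0.0355). AT4G33230 was called under none of the 3 scalings (1.89, adjusted p = 0.107 with the deposited one). In 17 members the in vivo arrays all exceeded the bud arrays, against 11.2% of all probe sets. The median log2 fold was 0.48 over the 39 members and -0.02 over all probe sets. Without bud replicate 3, or without in vivo replicate 3, 5 members were called in place of 9. AT3G17060, AT5G27870, AT3G06830, AT2G26450 and AT5G49180 were called in each of the 17 alternative settings; AT3G05610 was called in 12, AT1G23200 in 10, AT5G07420 in 8 and AT4G15980 in 7. Under all 3 scalings 7 of the 9 were called, AT1G23200 and AT4G15980 being the exceptions.

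Among the members that rose in vivo, in vivo replicate 3 and bud replicate 3 stood out as they did for the pollen tube markers. Of the 9 members that rose in vivo relative to bud, 8 were brightest on in vivo replicate 3 among the in vivo arrays, and all 9 were dimmest on bud replicate 3 among the bud arrays. The summed signal of the 9 pollen tube markers was 16834, 18172 and 38332 on the in vivo arrays, against 5248, 4929 and 2363 on the bud arrays, so the same 2 arrays stood out. Other arrays followed the markers less: in vivo replicate 2 was the dimmest in vivo array for 5 of the 9 members. The markers summed to 540668, 502667 and 800783 in vitro. Yet in vitro replicate 3 was the brightest cultured array for 7 of the 13 members that rose there and the dimmest for 5. Of these markers 6 of 9 rose in vivo relative to bud and none fell, with a median log2 fold of 2.36 and a range of 1.09 to 3.29. The 13 members called higher in vitro than in bud summed to 29461, 36414 and 68433 in vivo, to 381562, 407963 and 657411 in vitro, and to 9370.2, 9278 and 4482 in bud. What part this shared change had in the calls was not tested.

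The 9 members were chosen as called lower in vitro than in bud, so sums below those of bud were given in advance there. The green tissue markers, listed with earlier results of these data known, also had their lowest sums on the in vitro arrays. The 9 summed to 13419, 15057 and 17154 in vivo, to 1041, 1259 and 1355 in vitro, and to 7946, 8005 and 7335 in bud. All 5 green tissue markers fell in vitro relative to bud, with a median log2 fold of -6.06, and none was called between in vivo and bud (median -0.05). Of 4 measured pistil and nectary markers, of 6 listed, all 4 fell in vitro relative to bud with the deposited scaling and 2 with either other scaling, and 1 rose in vivo relative to bud. They summed to 13680.0 to 13965 in vivo, 251 to 589 in vitro and 4131 to 4946 in bud. The difference between in vivo and bud came mostly from SWEET9 (AT2G39060), with means of 8555 in vivo and 498 in bud. The means were 3230 and 1756 for AT3G12000, 1844 and 1811 for FER (AT3G51550), and 195 and 375 for SPT (AT4G36930). The part of other floral tissues in the signals of these 9 members was not tested.

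**Figure D4:**
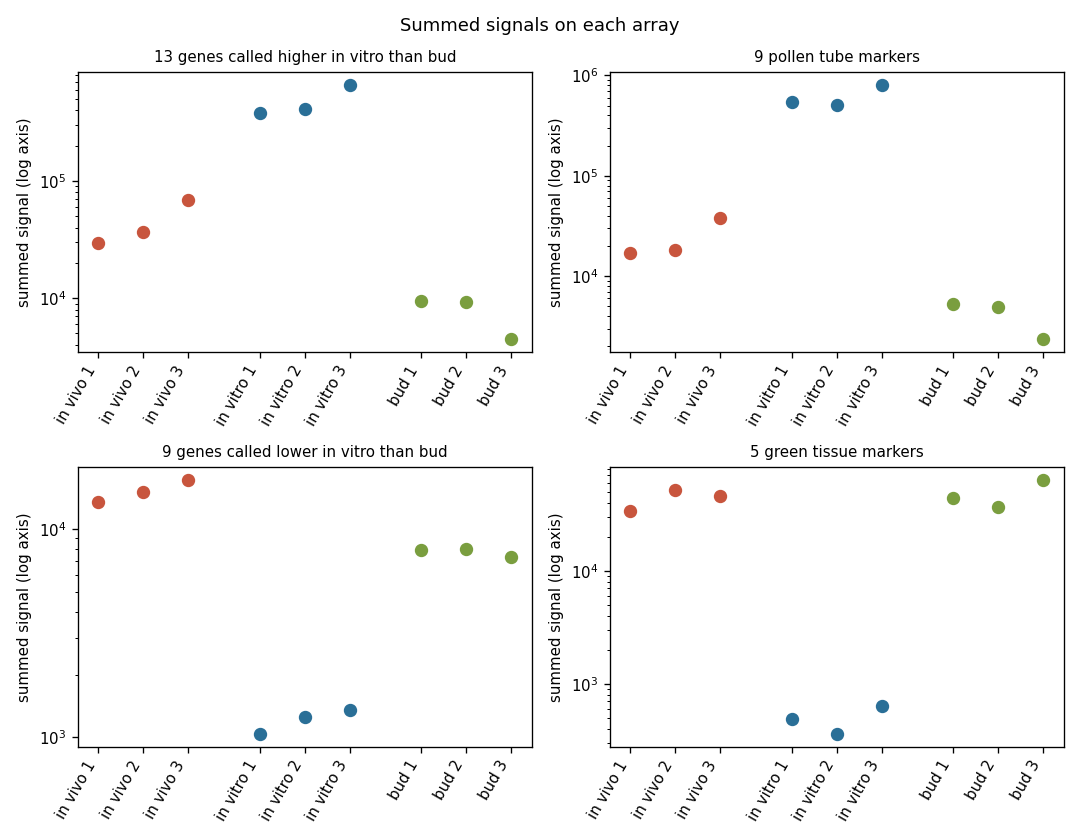
Summed MAS5 signals (log y axis) on each of the 9 arrays for the 13 members called higher and the 9 called lower in vitro than in bud, beside 9 pollen tube and 5 green tissue markers; each point is 1 array. The upper panels have their lowest point at bud replicate 3 and their highest at in vitro replicate 3, and in the lower panels the in vitro arrays lie below all others. The 13 and the 9 were chosen on in vitro against bud, so their difference between those groups was given in advance.

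The measured members held 0.293%, 0.308% and 0.510% of all signal on the in vivo arrays. They held 1.39%, 1.42% and 1.53% on the in vitro arrays, against 0.104%, 0.111% and 0.0737% on the bud arrays. The groups did not overlap, and the means were 0.370 ± 0.121% in vivo, 1.45 ± 0.0707% in vitro and 0.0960 ± 0.0196% in bud (SD, n = 3 each). Within cultured tubes almost all of it came from the 13 members that rose there, which held 1.44 ± 0.0708% of the signal. The 13 were chosen as higher in vitro than in bud, so a large share on these arrays partly follows from that choice. In bud the 13 held 0.0450 ± 0.0161% and the 9 that fell in vitro held 0.0454 ± 0.00254%. These shares are sums of probe set signals, which are not amounts of mRNA.

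Tubes in pollinated flowers were last set against tubes in culture, with the same in vivo and in vitro arrays as above. AT3G49220 was the member with the largest positive fold, at 5.92 ± 0.51 (adjusted p = 2.10e-06), with 5778, 6480.1 and 8592 in vivo, against the 3 low cultured arrays given above. AT5G49180 had 2656, 3274 and 3156 in vivo, against 308, 379.7 and 625 in vitro, a log2 fold of 2.80 ± 0.34 (adjusted p = 2.53e-05). AT1G23200 had 321, 320.3 and 553 in vivo, against 61.0, 97.6 and 81.5 in vitro, a log2 fold of 2.08 ± 0.39 (adjusted p = 0.000671). The in vivo arrays of both genes lay above all cultured arrays, with no overlap. AT3G10720 had 894, 958 and 931 in vivo and a fold of 3.99 ± 0.43 (adjusted p = 9.88e-06). AT5G19730 had 939.7, 1139 and 1566 in vivo, AT3G43270 had 1552, 1861 and 1410.0, and their folds were 3.99 and 3.79. AT4G02330, AT5G09760 and AT1G02810 were higher in vivo by 2.54, 2.10 and 1.28 on the log2 scale. AT3G47400 was not called (0.96, adjusted p = 0.0538), although its in vivo arrays lay above its in vitro arrays. AT3G10720, AT3G43270, AT3G49220, AT4G02330, AT5G19730 and AT5G49180 were called higher in vivo under all 3 scalings, while AT5G09760, AT1G23200 and AT1G02810 were not. In 12 members every in vivo array exceeded every in vitro array, against 40.7% of all probe sets, and in 14 every in vivo array lay below, against 22.8%.

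AT2G26450 and AT3G05610 had the largest negative folds in vivo relative to in vitro, at -6.19 ± 0.45 (adjusted p = 7.10e-07) and -6.04 ± 0.56 (adjusted p = 3.48e-06). AT5G07430 and AT4G33230 followed, at -5.12 and -4.58. The other 9 members that were lower in vivo had log2 folds between -2.90 and -1.53. Among them AT3G24130 had 24.4, 2.48 and 42.0 in vivo, against 73.9, 59.2 and 138 in vitro. AT5G27870 had 2384, 2116 and 6172 in vivo, against 13020.5, 12285 and 5150.0 in vitro; the groups overlapped, and the fold of -1.57 (adjusted p = 0.0299) was called in 11 of 17 alternative settings. AT5G07420 was not called, with 6353, 10306 and 22442 in vivo, against 13769, 17387 and 13831 in vitro, and a log2 fold of -0.39 ± 0.49 (adjusted p = 0.517). Its fold was 0.96 after quantile normalization (adjusted p = 0.142) and -1.42 with equal medians, where it was called lower in vivo (adjusted p = 0.0271). After quantile normalization AT3G17060, AT3G06830 and AT5G27870 were not called in this comparison. Over all probe sets the median was 0.36 with the deposited scaling, -0.26 after quantile normalization and -0.67 with equal medians. All 9 measured pollen tube markers were lower in vivo than in vitro, with a median log2 fold of -5.40 and a range of -6.90 to -3.20. All 5 measured green tissue markers were higher, with a median of 6.19. What part these marker differences had in the folds of the members was not tested.

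Several members are neighbours on a chromosome, by the order of genes in the RefSeq gene table of TAIR10.1. AT3G05610 and AT3G05620 adjoin each other. AT3G05620 had 54.6, 129 and 148 in vivo, 616, 809 and 1112 in vitro and 158, 147 and 101 in bud, with a log2 fold of 2.49 ± 0.40 (adjusted p = 0.000216) in vitro relative to bud, beside 8.76 for its neighbour. AT5G07420 and AT5G07430 are also adjacent, with folds of 2.40 and 6.87 in vitro relative to bud and 2.01 and 1.75 in vivo relative to bud. AT5G51490 rose in vitro by 2.22 ± 0.46, while its neighbour AT5G51500 had 3.75, 12.2 and 9.65 in vitro, against 3.65, 12.9 and 1.85 in bud, and was not called (adjusted p = 0.694). AT4G02330 fell in vitro, and its neighbour AT4G02320 had 17.8, 22.7 and 47.4 in vitro, against 65.5, 40.6 and 8.23 in bud, with no call (adjusted p = 0.827). AT2G36700 and AT2G36710 were called in no comparison. The difference between the folds of neighbours was not tested.

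The 2 probe sets that the annotation gives to pairs of family members cannot be assigned to a single gene. The probe set listed for PPME1 and AT5G07410 had 12985, 19694 and 29862 in vivo, 59413, 48269 and 66208 in vitro and 7488, 7344 and 4095 in bud. Its log2 fold was 3.24 ± 0.40 (adjusted p = 2.48e-05) in vitro and 1.69 ± 0.40 (adjusted p = 0.0359) in vivo, each relative to bud; the in vivo call held in 10 of 17 alternative settings, with adjusted p up to 0.173. The probe set listed for VGD1 and VGDH1 had 18528, 40903 and 29356 in vivo, 97989, 126047 and 281208 in vitro and 11512, 11561 and 5769 in bud. It rose in vitro relative to bud by 4.05 ± 0.48 (adjusted p = 2.01e-05), and the in vivo fold of 1.62 was not called (adjusted p = 0.113). On both probe sets the 3 groups did not overlap. They are not counted among the 39.

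The 15 members called in no comparison had signals between 0.701 and 387. In 10 of them no group mean exceeded 50, namely AT1G11590, AT2G19150, AT2G36700, AT2G36710, AT3G27980, AT4G02300, AT4G02320, AT5G04960, AT5G20860 and AT5G51500. The other 5 were AT2G47550, AT5G53370 (PMEPCRF), AT3G59010, AT5G18990 and AT1G05310. AT2G47550 had 272, 247 and 298 in vivo, 208, 185 and 134 in vitro and 387, 337 and 128 in bud, and AT5G53370 had 139, 172 and 379 in vivo, 179, 258 and 375 in vitro and 169, 122 and 197 in bud. The groups of AT5G53370 overlapped, and the in vivo arrays of AT2G47550 exceeded its in vitro arrays while both overlapped with bud. AT3G59010 (PME61, also named PME35), known for a part in the strength of the stem base, had 91.8, 105 and 69.0 in vivo, 134, 111 and 312 in vitro and 130.0, 179.7 and 83.3 in bud. AT5G18990 had 78.1, 83.8 and 82.8 in vivo, 14.9, 72.5 and 176 in vitro and 9.11, 9.95 and 37.1 in bud; its in vivo arrays lay close together and above all bud arrays, and the cultured ones spread widely. AT1G05310 had 91.1, 118 and 15.8 in vivo, 17.6, 13.5 and 119 in vitro and 58.2, 81.3 and 72.5 in bud, with overlapping groups. The in vivo arrays of AT3G59010 lay below its in vitro arrays without overlap. Under both other scalings 4 of the 15, AT3G59010, AT5G53370, AT5G18990 and AT5G04960, were called higher in vitro than in bud; AT3G59010 had 1.62 (adjusted p = 0.00384) after quantile normalization and 1.44 (adjusted p = 0.00537) with equal medians. In vivo relative to in vitro, AT3G59010, AT5G53370 and AT5G04960 were called lower under both. A missed threshold does not show that these genes had equal levels.

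Genes that act on pectin beside the methylesterases were described by counts. Over all probe sets, 2.15% were called higher and 1.87% lower in vivo than in bud. In vitro relative to bud the shares were 20.4% and 40.5%, and no list was tested against them. Of 39 genes listed as resembling pectin methylesterase inhibitors, 18 were measured; 3 rose and 1 fell in vivo relative to bud, and 5 rose and 6 fell in vitro relative to bud. APPB1 (AT4G24640) had 9197, 10615 and 16054 in vivo, 77041, 67824 and 94294 in vitro and 1900.0, 1266 and 542 in bud, with log2 folds of 3.39 ± 0.45 (adjusted p = 0.00126) in vivo and 6.15 ± 0.45 (adjusted p = 5.25e-07) in vitro, each relative to bud. AT1G10770 and AT5G50030 rose in vitro relative to bud by 6.88 and 6.90 on the log2 scale. AT5G20740 had 2426, 3122 and 1499.5 in vivo, 4.12, 7.63 and 24.4 in vitro and 6273, 5565 and 5009.9 in bud, and it fell in vitro relative to bud (-7.71, adjusted p = 7.76e-08). AT5G46940 fell in vivo relative to bud (-3.99, adjusted p = 0.000161). After quantile normalization 6 of the 18 rose and 4 fell in vitro relative to bud, and with equal medians 9 rose and 4 fell. The shares over all probe sets were not counted for these scalings. With the deposited scaling, the median folds of the 18 were 0.97 in vivo and 0.13 in vitro, each relative to bud.

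Pectate lyases and polygalacturonases cut the homogalacturonan chain, the lyases preferring the demethylated form. Of 23 measured pectate lyases 4 rose and 4 fell in vivo relative to bud, and 6 rose and 13 fell in vitro relative to bud, with medians of 0.02 and -2.29. The counts here are to be read beside those over all probe sets. These were 2.15% higher and 1.87% lower in vivo, and 20.4% higher and 40.5% lower in vitro, each relative to bud. AT59 (AT1G14420) rose in vitro relative to bud by 8.45 ± 0.38 (adjusted p = 6.32e-08) and in vivo by 3.13 ± 0.38 (adjusted p = 0.000662). Of 5 measured pollen polygalacturonases 4 rose in vitro relative to bud and 1 rose in vivo, and none fell; AT5G48140 rose in both, by 6.86 and 3.56. Of 6 measured pectin acetylesterases 1 rose and 2 fell in vitro relative to bud, and AT3G05910 had 12.1, 2.22 and 25.3 in vitro, against 2471, 1905 and 1877 in bud. Subtilases are proteases, some of which process methylesterase precursors: of 6 measured, 4 fell in vitro relative to bud with the deposited scaling and 3 with either other scaling. AT2G05920 (-5.98, adjusted p = 6.41e-07), ARA12 (AT5G67360; -3.99, adjusted p = 1.55e-05) and ATSBT5.2 (AT1G20160; -2.24, adjusted p = 0.000384) were called in all 17 alternative settings, and S1P (AT5G19660; -1.35, adjusted p = 0.0326) in 11. None of the subtilases was called in vivo relative to bud. Of 21 genes listed for the synthesis and methylation of homogalacturonan, 2 were measured, GAUT15 (AT3G58790) and AT3G49720. Both fell in vitro relative to bud with the deposited scaling, and 1 did with either other scaling; AT3G49720 had a log2 fold of -4.17 (adjusted p = 9.77e-07).

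**Figure D5:**
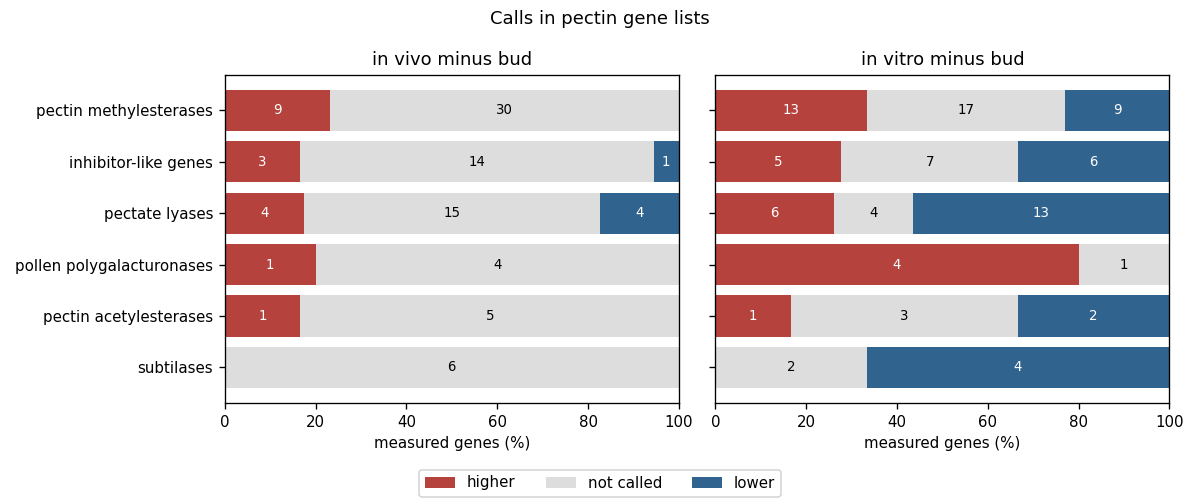
Share of measured genes (x axis, percent) called higher, not called or called lower in 6 lists of pectin genes, in vivo minus bud (left) and in vitro minus bud (right); numbers in the bars count genes. The pectin methylesterases have 9 higher and 0 lower on the left, and 13 higher and 9 lower on the right, where the deposited scaling was used. Over all probe sets the shares were 2.15% higher and 1.87% lower in vivo minus bud, and 20.4% and 40.5% in vitro minus bud.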

How the data were processed

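The data were polysomal mRNA of 3 groups of 3 biological replicates on 1-colour Affymetrix arrays. The authors deposited 1 intensity for each probe set of each array. The submitters' processing notes name MAS5, whose version the sources used here do not give. The trimmed mean of each array, without the highest and lowest 2% of values, was 500.04 to 500.13, so arrays had been scaled to 1 target. Detection calls were not used here. Of 22810 probe sets, 64 controls were left out; the annotation gave 1 gene for 13513 of the others, several for 503, and did not list 8730. Members were matched by locus through gene identifiers in the RefSeq gene table of TAIR10.1; no coordinates are printed because the build behind the annotation is not named. Protein and promoter sequences were not used here.

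Log2(intensity + 16) was fitted with limma 3.58.1 in R 4.3.3 over the 9 arrays together (group means, two-sided tests), with p-values adjusted over all 22746 probe sets. The fit was tested on simulated data. The members and gene lists were chosen with earlier results of these data known. Every measured member is accounted for; of each other list, the genes named are among the 4 with the largest absolute moderated statistics in vitro relative to bud or the 2 with the largest in vivo relative to bud. Alternatives were offsets of 1 and 64, quantile normalization, equal medians, a filter on signals over 50, the 6 arrays compared alone, a replicate block, an intensity trend and leaving out each array. The number of arrays limits the precision. No pairing by replicate number was visible: deviations of same-numbered arrays from their group means correlated at -0.05 to 0.07. Those of arrays with different numbers correlated at -0.08 to 0.08. Whether samples were collected in matched sets cannot be told from these values.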

Additional observations from a re-analysis of the deposited data

How the results depend on the processing

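Of 17 alternative settings, 9 left out 1 array each. The count of members higher in vivo than in bud was 9 as reported. It was 5 when the offset was lowered to 1 and 13 when only the 6 arrays of both groups were fitted. With 1 array left out it was 5 to 11. With the replicate number as a block it was 7, although no pairing by that number was visible. None was lower in any setting. In vitro relative to bud, the count higher (13) was 24 with equal medians and 13 to 14 with 1 array left out, and the count lower (9) was 5 with equal medians, 4 after quantile normalization and 8 to 10 with 1 array left out; with the block the counts were 14 and 9. In vivo relative to in vitro, the count higher (9) was 9 to 10 with 1 array left out, and the count lower (13) was 20 with equal medians and 11 to 13 with 1 array left out; the block left both at 9 and 13. The share of signal held by the members was 0.301% to 0.409% in vivo, 1.41% to 1.48% in vitro and 0.0886% to 0.107% in bud when 1 array was left out. Signs turned in vitro relative to bud for AT1G02810 (0.012 with equal medians, 0.24 after quantile normalization), AT5G49180 (0.15 and 0.10) and AT2G19150 (1.04 with equal medians), and in vivo relative to in vitro for AT1G02810 (-0.023 after quantile normalization). The cause of these changes was not tested. Shares over all probe sets were counted only for the fit as reported, so the member counts in other settings have none beside them. In vivo relative to bud, 31 of 653 values of single members lost their call and 10 gained one; in vitro relative to bud 18 lost and 22 gained one, and in vivo relative to in vitro 13 lost and 13 gained one, the reversed values included. A further 69 values changed sign with no call in either setting. The planned choice of the dimmest probe set per gene gave no value, because no member had more than 1. Detection calls were not used, so no limit of detection was set for the 10 members with group means under 50.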

Other observations

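The 13 members called higher in vitro than in bud were also set against the pollen tube markers of the same array. The summed signal of the 13 divided by that of the 9 markers was 1.75, 2.00 and 1.79 on the in vivo arrays and 0.706, 0.812 and 0.821 on the in vitro arrays, against 1.79, 1.88 and 1.90 on the bud arrays. The in vivo and bud arrays overlapped in this ratio, with means of 1.85 ± 0.138 in vivo and 1.85 ± 0.0605 in bud (SD, n = 3 each), and the in vitro arrays, at 0.779 ± 0.0640, lay below both. The sums of the 13 were 68433 on in vivo replicate 3 and 4482 on bud replicate 3, where the ratios were 1.79 and 1.90. Bright genes weigh most in such ratios of sums. The brightest of the 13 in vivo, AT3G17060 and AT5G07420, had mean signals of 17029 and 13033.5 there. The brightest of the 9 markers in each group had means of 12778 in vivo, 142529 in vitro and 2248 in bud. The ratios thus need not hold for the other genes. For the 9 members called lower in vitro than in bud, the ratio was 0.797, 0.829 and 0.448 in vivo and 0.00192, 0.00250 and 0.00169 in vitro, against 1.51, 1.62 and 3.10 in bud. For all 39 measured members it was 2.62, 2.90 and 2.27 in vivo and 0.709, 0.816 and 0.825 in vitro, against 3.51, 3.72 and 5.28 in bud, so that here the in vivo arrays lay below the bud arrays without overlap. These ratios were computed after the values were seen, the 13 and the 9 were chosen on the comparison of in vitro with bud, and no test was made.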
